A study of Mus musculus with 4 samples.

Results

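Endothelial junction and adhesion genes were examined in open chromatin of mouse heart nuclei. They were chosen by name and not by a measured value, but with earlier results of these data known. The 10 genes came from the 21755 protein-coding genes of the GENCODE M21 annotation of mm10: Cdh5, Cldn5, Tjp1, Jam2, F11r, Esam, Pecam1, Icam1, Icam2 and Emcn. Around them lay 110 of the 78912 peaks found in GFP- nuclei and 126 of the 65008 peaks found in GFP+ nuclei.

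The assay was ATAC-Seq, in which the Tn5 transposase inserts sequencing adapters into accessible DNA, so that read pile-ups (peaks) mark open chromatin. Nuclei came from whole hearts of male C57BL/6 mice aged 8 to 12 weeks, and 100 to 50000 nuclei entered a reaction. All animals carried NuTRAP/Cdh5-Cre: Cre is driven by a Cdh5 promoter, and the NuTRAP reporter then labels nuclei of cells of endothelial descent with GFP. GFP+ (endothelial) and GFP- (non-endothelial) nuclei were separated by flow cytometry, with 2 replicates of each, and the labels do not say how many animals each held. The authors kept only single nuclei of diploid DNA content. The GFP- group is a mixture of all such nuclei of the heart without GFP, and GFP marks descent rather than current identity.

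Endothelial cells line blood vessels and are held together by adherens junctions, built on cadherins, and tight junctions, built on claudins and immunoglobulin-like adhesion molecules that bind scaffold proteins inside the membrane. Further immunoglobulin-like molecules on the same cells bind leukocytes and platelets and steer their passage across the vessel wall. Some of these proteins are made almost only by endothelium, while others also serve epithelial, muscle or blood cells. An active promoter is usually open, and enhancers that act on it lie open in introns and intergenic sequence.

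The authors called 1 peak list per population from both of its replicates, so no spread between replicates can be had, and no difference given here has a test or a p-value. Peak areas are not on a common scale in the lists. Each peak was therefore ranked by area against the other peaks of the same list, with 0 for the smallest and 100 for the largest. A start peak overlapped an annotated transcript start or the 250 bp on either side of it. A gene with a start peak in only 1 list was set to rank 0 in the other for differences and medians. Peaks that overlapped by at least 1 bp were counted as shared, and a peak with no overlap as GFP+ only or GFP- only. Over whole lists, 13.4% of GFP+ peaks overlapped no GFP- peak and 30.3% of GFP- peaks overlapped no GFP+ peak. The GFP- list was the longer, with 52.1 Mb against 41.8 Mb covered, and each difference in ranks is a description of 2 lists. In such mixed nuclei, openness in fewer cells and weaker openness in each cell cannot be told apart.

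The sequences that the results turn on are of 2 kinds, promoters and distal peaks. Promoters were read from RefSeq (GRCm38.p6), which held 5 of the 10 genes (Cldn5, Tjp1, Icam1, F11r and Emcn). They are shown for Cldn5 and Emcn, which had a start peak only in GFP+ nuclei, and for Tjp1, which had nearly the same rank in both lists. Each is given up to the last base before the start, or before the first annotated exon base. Cldn5 is shown from chr16:18776597-18776846 on the plus strand, Emcn from chr3:137340828-137341066 on the plus strand and Tjp1 from chr7:65371245-65371494 on the minus strand. Capitals mark AGGAAG on either strand, a core word of ETS factors.
Cldn5: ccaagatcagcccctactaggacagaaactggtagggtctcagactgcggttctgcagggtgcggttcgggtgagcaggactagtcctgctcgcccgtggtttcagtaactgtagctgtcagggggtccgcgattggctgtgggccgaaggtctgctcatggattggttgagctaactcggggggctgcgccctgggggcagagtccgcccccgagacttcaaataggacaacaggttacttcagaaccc
Emcn: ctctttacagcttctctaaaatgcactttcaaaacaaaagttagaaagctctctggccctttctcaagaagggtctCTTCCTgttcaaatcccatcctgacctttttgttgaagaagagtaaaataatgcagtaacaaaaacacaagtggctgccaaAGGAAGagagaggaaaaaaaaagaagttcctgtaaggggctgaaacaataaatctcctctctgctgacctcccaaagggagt
Tjp1: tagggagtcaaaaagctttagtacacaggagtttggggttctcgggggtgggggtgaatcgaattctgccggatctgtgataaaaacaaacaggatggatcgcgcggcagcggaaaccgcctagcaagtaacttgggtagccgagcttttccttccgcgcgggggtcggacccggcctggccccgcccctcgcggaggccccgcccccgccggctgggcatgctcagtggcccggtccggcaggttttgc
In these stretches the Tjp1 promoter held 22 CpG dinucleotides in 250 bases, the Cldn5 promoter 12 in 250 and the Emcn promoter 0 in 239. The AGGAAG word was present in Emcn on both strands and in neither of the others, and other forms of ETS sites were not searched.

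The distal sequences are the 200 bases around the summit of the largest intronic or flank peak that was GFP+ only, for the 6 genes in which this peak ranked above 50 in its list. All are on the plus strand of GRCm38.p6 and hold no annotated exon base: Cdh5 chr8:104099495-104099694, Pecam1 chr11:106737240-106737439, Tjp1 chr7:65381999-65382198, Jam2 chr16:84804972-84805171, F11r chr1:171441522-171441721 and Emcn chr3:137322418-137322617. Capitals mark AGGAAG, the longer ETS word CAGGAAGT that contains it, the SOX word CCATTGT, the GATA word AGATAA and the KLF word CCACACCC, each on either strand.
Cdh5: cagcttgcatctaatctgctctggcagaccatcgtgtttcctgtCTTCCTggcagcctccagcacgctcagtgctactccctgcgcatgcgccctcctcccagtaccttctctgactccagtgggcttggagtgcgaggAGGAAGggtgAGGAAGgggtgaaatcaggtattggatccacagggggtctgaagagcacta
Pecam1: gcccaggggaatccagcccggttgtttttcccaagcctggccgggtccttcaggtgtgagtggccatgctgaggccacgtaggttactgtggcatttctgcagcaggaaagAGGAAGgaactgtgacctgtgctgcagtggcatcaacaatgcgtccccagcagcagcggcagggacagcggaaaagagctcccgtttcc
Tjp1: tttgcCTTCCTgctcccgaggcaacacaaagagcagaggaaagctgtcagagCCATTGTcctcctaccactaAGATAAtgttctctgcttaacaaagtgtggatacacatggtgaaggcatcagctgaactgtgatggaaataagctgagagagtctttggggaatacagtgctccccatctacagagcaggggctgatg
Jam2: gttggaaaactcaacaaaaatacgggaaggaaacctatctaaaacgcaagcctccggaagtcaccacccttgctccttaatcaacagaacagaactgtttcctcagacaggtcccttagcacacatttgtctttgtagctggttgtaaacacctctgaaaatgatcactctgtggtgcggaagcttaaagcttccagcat
F11r: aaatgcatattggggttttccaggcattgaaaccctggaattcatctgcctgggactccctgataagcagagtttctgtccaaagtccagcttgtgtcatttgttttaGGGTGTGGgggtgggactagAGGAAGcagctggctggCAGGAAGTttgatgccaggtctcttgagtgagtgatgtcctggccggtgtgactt
Emcn: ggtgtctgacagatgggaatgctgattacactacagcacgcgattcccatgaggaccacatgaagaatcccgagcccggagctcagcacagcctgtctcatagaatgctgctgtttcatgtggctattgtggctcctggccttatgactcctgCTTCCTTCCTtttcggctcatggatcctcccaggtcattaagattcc
All of these stretches except that of Jam2 held AGGAAG on a strand, and that of F11r also held the longer CAGGAAGT. Only these exact words were searched, so a stretch without a word can still hold another form of a site for the same factors. The word is common: in windows of 300 bp it was in 52.5% of all GFP+ only peaks. No share was computed for windows of 200 bases. The Tjp1 stretch was the only one of the 6 with the SOX word and the GATA word.

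At transcript starts, 10 of 10 genes had a peak in the GFP+ list, against 59.8% of all protein-coding genes, and 7 of 10 had one in the GFP- list, against 61.8% of all. Pecam1, Cldn5 and Emcn had a start peak only in the GFP+ list, which was so for 0.915% of all genes (199 of 21755). The best start peak of Cdh5, Pecam1, Cldn5, Icam2 and Emcn ranked at least 20 points higher in GFP+ than in GFP- nuclei, 5 of 10 genes against 1.22% of all (265 of 21755). With the 5′ boundary of the gene record as the sole start, 3 of 10 did, since Pecam1 and Icam2 had their larger peaks at other starts. None of the 10 ranked at least 20 points lower, as 1000 of all genes did. Over the 10 genes, with a missing peak set to 0, the median rank was 49.1 in the GFP- list and 86.6 in the GFP+ list. The median of the differences was 39.0 points. No gene lay near 49.1 or 39.0: GFP- ranks were 18.0 or lower, or 80.3 or higher. The differences were 61.7 points or more, or 16.2 or less. Over the 13643 genes with a start peak in either list the medians were 90.3 and 88.6, and the median difference was -0.81 points.

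**Figure D1:**
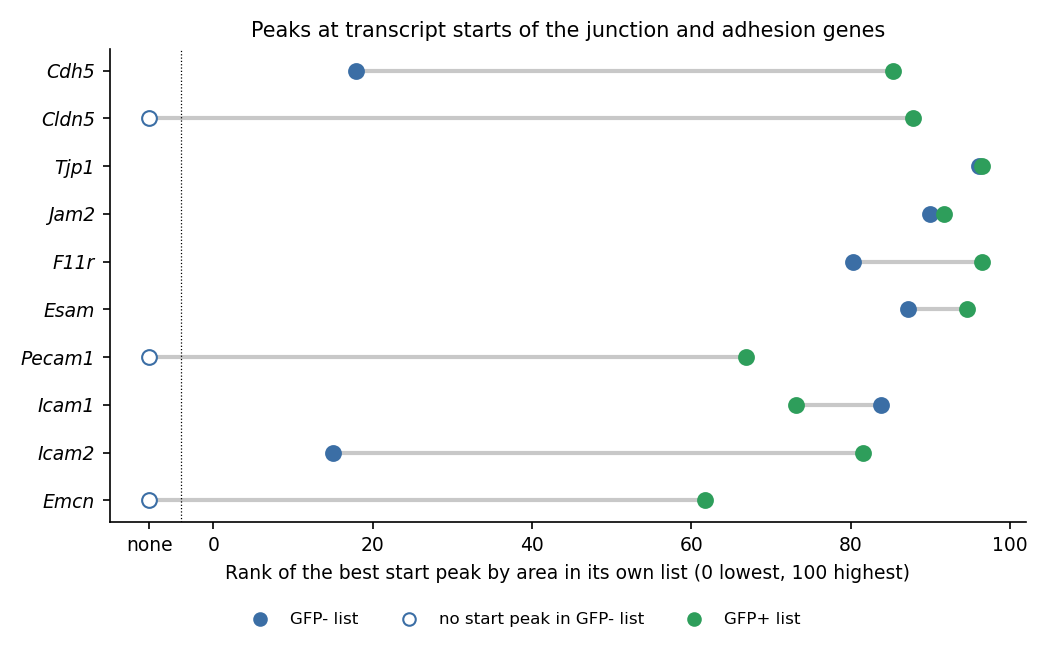
Rank of the best start peak of each gene by area in its own list, from 0 (smallest) to 100 (largest), in the GFP- list (blue) and the GFP+ list (green), with 1 value per list; open circles mark genes with no start peak in the GFP- list. Cdh5, Cldn5, Pecam1, Icam2 and Emcn lie at 61.7 to 87.9 in GFP+ and at 18.0 or lower, or without a peak, in GFP-, while Tjp1 and Jam2 nearly coincide and Icam1 is higher in GFP-.

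Cdh5 encodes VE-cadherin, the cadherin of endothelial adherens junctions (chr8:104101625-104144511, plus strand). At the start of Cdh5-201 the GFP- list held a peak of 304 bp with rank 18.0, position 64742 by area in its list. At the same start the GFP+ list held a peak of 1450 bp with rank 85.3, position 9535. The ranks differed by 67.4 points, and the GFP- peak lay within the longer GFP+ peak. The start of Cdh5-202, which lies in an intron of Cdh5-201, had a peak only in the GFP+ list, of 385 bp with rank 28.5. Upstream of Cdh5-201 the GFP+ list had a run of open stretches that ended 5819 bp before the start. The largest of these, chr8:104098769-104100651, was GFP+ only, 1883 bp long, with its summit 2030 bp upstream and rank 85.6, just above that of the start peak itself. A second GFP+ only peak, chr8:104096623-104097097, lay 4738 bp upstream with rank 65.1. The stretch at 5819 bp upstream was shared, with rank 11.6 in GFP- and 73.0 in GFP+. This was the widest difference of any shared intronic or flank region of the 10 genes. In introns of Cdh5 there were 4 GFP+ peaks, 3 of them GFP+ only and all with ranks of 22.4 or lower. The largest GFP- only peak within 50 kb, chr8:104191226-104191961 with rank 80.5, lay downstream and nearest to the start of Bean1, as did the largest shared flank peak of the GFP- list, with rank 76.8 in GFP- and 65.9 in GFP+. The Cre transgene carries a copy of Cdh5 promoter sequence, and reads from that copy cannot be told apart from reads of the gene's own 5′ region in these lists. Without Cdh5, 4 of 9 genes ranked at least 20 points higher in GFP+.

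Cldn5 encodes claudin-5, the main claudin of endothelial tight junctions (chr16:18776847-18778262, plus strand). The gene is 1416 bp long, and a GFP+ peak of 2307 bp with rank 87.9 covered its start, while no GFP- peak reached within 250 bp of it. The GFP- list did hold a peak of 416 bp with rank 9.75 inside the exon, with its summit 720 bp downstream of the start, within the span of the GFP+ peak. With starts widened to 1000 bp on each side, this peak was counted and the number of genes with a start peak only in GFP+ fell to 2. The summit of the GFP+ peak lay 886 bp upstream of the start. Peaks covered 94.1% of the Cldn5 gene in the GFP+ list and 29.4% in the GFP- list. The upstream flank held 3 shared regions, and 2 of them ranked over 20 points higher in GFP+. At 43605 bp upstream the rank was 56.1 in GFP- and 85.8 in GFP+, and at 30159 bp upstream it was 48.0 in GFP- and 83.8 in GFP+. The other 3 upstream peaks were GFP+ only, the largest of them at chr16:18761592-18762096, 14824 bp before the start, with rank 28.6. The largest shared peak by area lay near the start of Ufd1 and had rank 93.5 in GFP- and 93.0 in GFP+. A single GFP- only peak, chr16:18795339-18795844 with rank 6.57, lay downstream near Cdc45.

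Tjp1 encodes ZO-1, the scaffold protein that ties tight junctions of many cell types to actin (chr7:65296165-65527781, minus strand). Its start peak ranked highest of the 10 genes in the GFP- list. The starts of Tjp1-201, Tjp1-202 and Tjp1-207 lay under a GFP- peak of 1939 bp with rank 96.1 and a GFP+ peak of 1845 bp with rank 96.5. The ranks differed by 0.41 points. The upstream starts of Tjp1-205 and Tjp1-206, at chr7:65527696 and chr7:65527781, and the internal starts of Tjp1-203 and Tjp1-204 had no peak in either list. In its introns Tjp1 had 6 GFP+ only peaks and 2 GFP- only peaks. The largest GFP+ only peak, chr7:65381926-65382293, lay 10860 bp upstream of the open start with rank 57.2. Another, chr7:65375196-65375639, lay 4052 bp upstream with rank 56.4. The largest GFP- only peak, chr7:65410845-65411060, was intronic too, with rank 20.7. The largest shared intronic peak lay 90355 bp upstream of the open start, with rank 79.9 in GFP- and 79.6 in GFP+. Shared intronic regions moved in both directions: that at 46417 bp upstream had rank 74.5 in GFP- and 40.3 in GFP+, and that at 85029 bp upstream had rank 18.0 in GFP- and 45.5 in GFP+.

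Jam2 and F11r encode junctional adhesion molecules B and A, immunoglobulin-like proteins of tight junctions. Jam2 (chr16:84774123-84825928, plus strand) had a start peak of 1946 bp with rank 89.9 in GFP- and of 2244 bp with rank 91.7 in GFP+. Its internal starts had no peak in either list. The intronic region 28009 bp downstream of the start had rank 16.4 in GFP- and 66.5 in GFP+. The largest GFP+ only peak, chr16:84804891-84805360, lay 30686 bp downstream in an intron, with rank 59.7. A GFP- only peak, chr16:84771430-84771956, lay 2725 bp upstream of the start with rank 73.1, and no GFP+ peak overlapped it. The largest shared peak in its flanks was that at the start of Atp5j, with rank 99.7 in both lists.

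F11r (chr1:171437535-171464603, plus strand) had a start peak of 1672 bp with rank 80.3 in GFP- and of 3774 bp with rank 96.5 in GFP+, a difference of 16.2 points. The GFP+ peak ran on into the first intron and covered 3 GFP- peaks, the start peak and intronic peaks with ranks 2.07 and 72.6. Beyond it, F11r introns held 5 GFP+ peaks, and all 5 were GFP+ only. The largest, chr1:171441134-171441837, lay 4043 bp downstream of the start with rank 57.0, and the next, chr1:171452665-171453212, had rank 43.8. No GFP- only peak was found in F11r or within 50 kb of it. Peaks covered 9.59% of the F11r gene in GFP- and 20.9% in GFP+. The largest shared flank peak, near the start of Alyref2, had rank 97.4 in GFP- and 94.2 in GFP+.

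Esam encodes an adhesion molecule of endothelial tight junctions that platelets also carry (chr9:37528078-37538319, plus strand). It had 2 open start regions in each list. At Esam-201 and Esam-205 the peak was 1414 bp with rank 80.0 in GFP- and 2681 bp with rank 94.6 in GFP+. At Esam-202 and Esam-204, further into the gene, the peak was 1961 bp with rank 87.2 in GFP- and 1813 bp with rank 93.4 in GFP+. Best against best, the difference was 7.39 points. When peaks were ranked by area per bp instead, the difference for Esam was 28.8 points. Its GFP+ only flank peaks were small, the largest at chr9:37541546-37542188 with rank 17.0 and nearest to the start of Vsig2. Its largest GFP- only peak, chr9:37567911-37568343 with rank 53.0, was nearest to Siae. The largest shared flank peak, near Msantd2, had rank 94.5 in GFP- and 91.3 in GFP+.

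Pecam1 encodes PECAM-1 (CD31), an adhesion molecule at contacts between endothelial cells that platelets and leukocytes also carry (chr11:106654217-106750628, minus strand). Of its 8 annotated starts, 5 lay between chr11:106714946 and chr11:106715394, and these shared a GFP+ peak of 817 bp, chr11:106714996-106715812, with rank 66.9. No Pecam1 start had a peak in the GFP- list. The far upstream start of Pecam1-201, which sets the 5′ end of the gene record, had no peak in either list, so by that start alone Pecam1 would be listed without a start peak. The body of the gene was open in both lists. Its introns held 9 GFP- and 12 GFP+ peaks, of which 8 regions were shared. The largest shared intronic region, 40411 bp downstream of the open start, had rank 94.3 in GFP- and 94.9 in GFP+. Upstream of the open start, still within the long transcript, a shared region at 7789 bp had rank 58.0 in GFP- and 53.6 in GFP+. The GFP+ only peak chr11:106736771-106737609 lay 22075 bp upstream with rank 64.9. The GFP- only peak chr11:106728272-106729224 lay 13249 bp upstream with rank 82.5, and it was the highest ranking GFP- only peak in an intron of the 10 genes. In its flanks, the largest shared peak lay at the start of Ddx5, with rank 99.9 in GFP- and 99.8 in GFP+.

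Icam1 encodes a ligand of leukocyte integrins that many cell types make when inflamed (chr9:21015985-21028817, plus strand). By area, it was the only gene of the 10 whose best start peak ranked lower in GFP+. The GFP- start peak was 2251 bp long with rank 83.8, and the GFP+ start peak was 1234 bp long with rank 73.2, a difference of -10.7 points. The direction turned when peaks were ranked by area per bp, with 2.20 points for Icam1 and -2.66 for Jam2. Ranked by the p-value of the summit, both Icam1 (-1.01 points) and Tjp1 (-1.56 points) were lower in GFP+. With the upper 50% of each list by area, ranks were taken anew among the kept peaks, which stretches the scale. The difference for Icam1 was then -21.3 points. This is the same difference on the stretched scale and not a larger one. The GFP+ list had a separate peak of 866 bp just upstream, with rank 59.3, and the GFP- peak spanned both. Of the intronic and flank peaks 1 was GFP+ only, with rank 18.5, and 5 were GFP- only. The largest GFP- only peak, chr9:20971519-20973314 with rank 91.6, lay nearest to the start of S1pr2, and the only GFP- only peak nearest to Icam1 itself, chr9:21010412-21010809, lay 5470 bp upstream with rank 65.98. The largest shared flank peak lay downstream near the starts of Icam4 and Icam5, with rank 97.4 in GFP- and 96.8 in GFP+.

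Icam2 encodes an integrin ligand that resting endothelium carries (chr11:106377656-106388075, minus strand). At the starts of Icam2-201 and Icam2-202 the GFP- peak was 343 bp with rank 15.0, and the GFP+ peak was 1903 bp with rank 81.5. The GFP+ peak covered a further GFP- peak in the adjoining intron with rank 25.7. The difference was 66.6 points by area, 17.3 points when peaks were ranked by area per bp and 41.3 points when they were ranked by the p-value of the summit. The starts of Icam2-203 and Icam2-204, at chr11:106388072 and chr11:106388075, had a GFP+ only peak of 331 bp with rank 13.5, and that of Icam2-205 had none in either list. In the flanks 8 GFP+ peaks were shared, and their ranks differed by -11.3 to 3.03 points. The largest GFP+ only flank peak, chr11:106390468-106391088, lay 8178 bp upstream with rank 33.5, and the largest GFP- only peak, chr11:106328567-106329003 near Cd79b, had rank 19.6. A shared peak near the same start had rank 79.1 in GFP- and 80.0 in GFP+.

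Emcn encodes endomucin, a sialomucin of venous and capillary endothelium that hinders leukocyte contact (chr3:137341067-137432185, plus strand). Its 4 starts lay under 1 GFP+ peak of 613 bp, chr3:137340924-137341536, with rank 61.7, and no GFP- peak was found there. In the 91119 bp of the gene and its flanks the GFP- list held a single peak, 47842 bp upstream, with rank 1.57. At the same place the GFP+ list held a peak with rank 29.5. The GFP+ only peak chr3:137322239-137322727 lay 18656 bp upstream with rank 64.3, above that of the start peak. Another GFP+ only peak, 1622 bp into the gene, had rank 6.84. Emcn had the fewest peaks of the 10 genes in both lists.

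**Figure D2:**
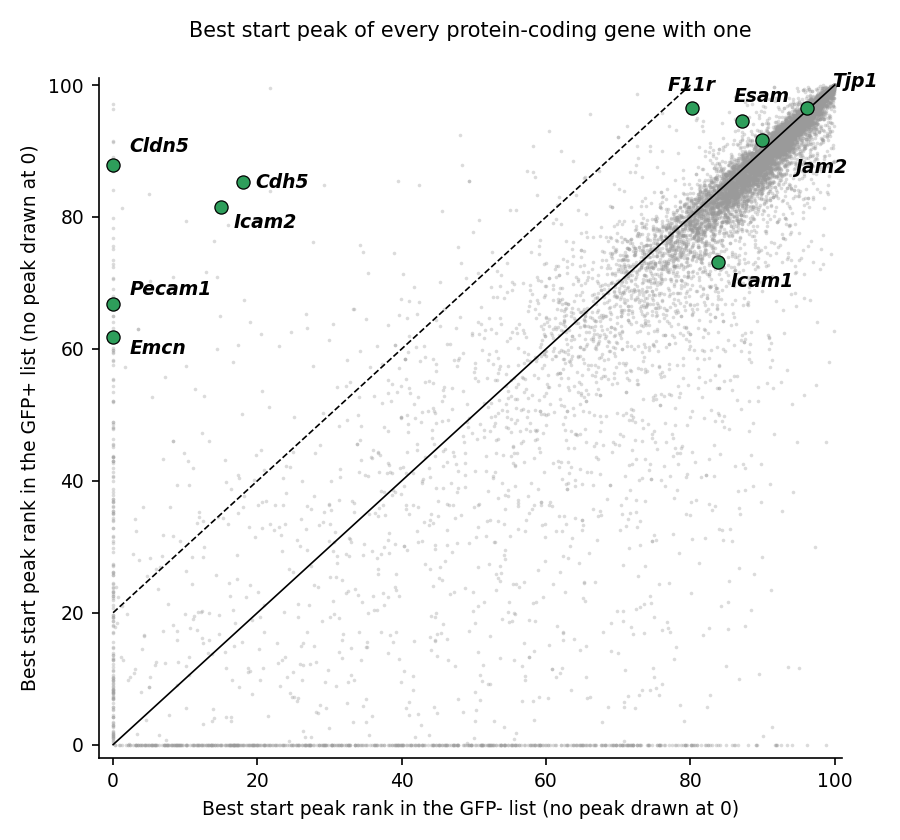
Best start peak rank in the GFP- list (horizontal) and in the GFP+ list (vertical) for every protein-coding gene with a start peak in either list (grey points), with the 10 genes in green; a missing peak is drawn at 0, the solid line is equality and the dashed line 20 points above it. Cldn5, Pecam1 and Emcn lie on the left edge, Cdh5 and Icam2 well above the dashed line, and Tjp1, Jam2, Esam, F11r and Icam1 within 20 points of equality.

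Intronic and flank peaks (50 kb on each side) were compared next. Of 109 GFP+ peaks, 33 were GFP+ only, a share of 30.3% (Wilson 95% interval 22.4 to 39.5, for counting error only). Over all protein-coding genes the share was 11.8% of pairs of a gene and a peak. When an overlap had to cover 50% of both peaks, the shares were 33.9% (interval 25.74 to 43.25) and 26.2%. The interval then included the share over all genes. Of 100 GFP- peaks, 22 were GFP- only, a share of 22.0% (15.0 to 31.1), against 25.4% of such pairs over all genes. In introns the GFP+ only share was 43.8% (21 of 48, interval 30.7 to 57.7), against 16.2% over all genes. In flanks it was 19.7% (12 of 61, interval 11.6 to 31.3), against 10.6%. The GFP- only share was 9.09% in introns (3 of 33, interval 3.14 to 23.6), against 34.2% over all genes, and 28.4% in flanks (19 of 67, interval 19.0 to 40.1), against 22.8%. Over all genes the intronic share was thus the higher in both lists, and in the 10 genes it was the higher in the GFP+ list and the lower in the GFP- list. Where the nearest protein-coding start was that of the gene itself, 40.6% of GFP+ peaks were GFP+ only (28 of 69), against 15.7% over all genes, and 17.0% of GFP- peaks were GFP- only (9 of 53), against 33.7%. Where it was another gene's, 12.5% of GFP+ peaks were GFP+ only (5 of 40), against 10.1%, and 27.7% of GFP- peaks were GFP- only (13 of 47), against 21.3%. Flanks of neighbouring genes overlap, so a peak can be counted for more than 1 gene in the background, and peaks of 1 gene are not independent of each other.

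More GFP+ only than GFP- only peaks were counted in 6 of the 10 genes (Cdh5, Cldn5, Esam, Tjp1, F11r and Emcn), against 15.4% of all genes. Genes with equal numbers, or with no such peak, were not counted as having more. All 3 GFP+ only peaks of Esam lay within 1000 bp of starts of other genes and ranked 17.0 or lower. Of its 2 GFP- only peaks, that near Nrgn did so too. F11r (5 against 0), Tjp1 (6 against 3) and Cdh5 (5 against 2) had the widest margins. Pecam1 (4 against 4) and Icam2 (2 against 2) were even, and Jam2 (2 against 3) and Icam1 (1 against 5) had more GFP- only peaks. The GFP+ only peaks were mostly small, with a median rank of 18.5 against 56.7 for shared GFP+ peaks of these genes. The same held for GFP- only peaks, with a median of 20.98 against 56.4 for shared ones. Of 76 shared regions, 38 ranked higher and 38 lower in GFP+, with 11 higher and 5 lower by at least 20 points. The median difference over the 76 was 0.0020 points. Over all protein-coding genes 32.5% of shared pairs of a gene and a peak ranked higher in GFP+, 4.35% by at least 20 points, 14.8% ranked lower by at least 20 points, and the median difference was -2.18 points.

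**Figure D3:**
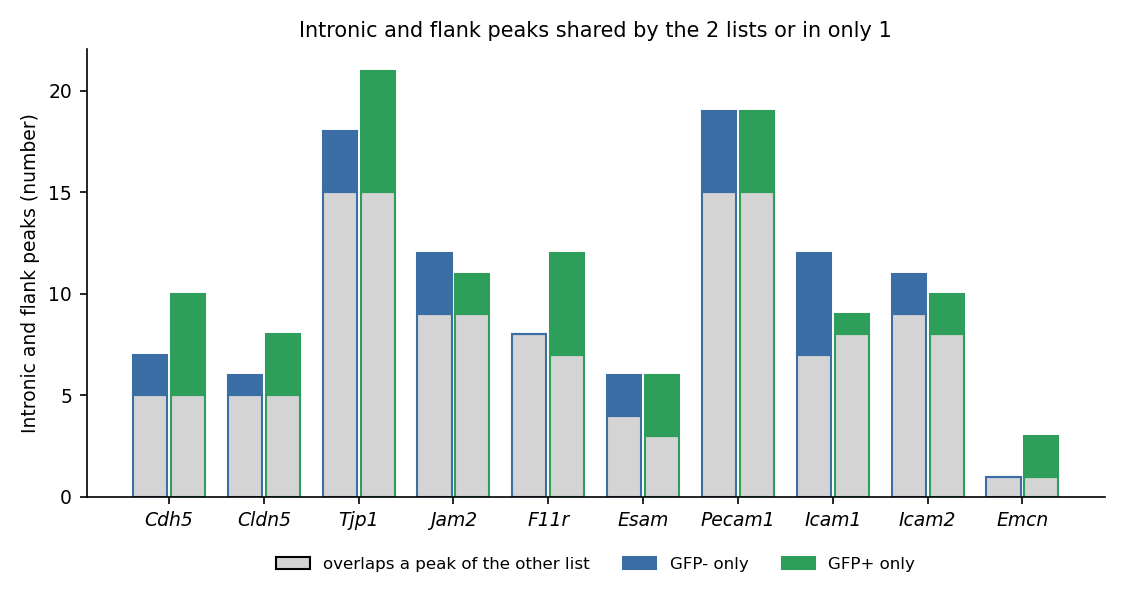
Number of intronic and flank peaks of each gene in the GFP- list (left bar, blue outline) and the GFP+ list (right bar, green outline), split into peaks that overlap the other list (grey) and peaks that do not (filled). The filled part is 6 of the 21 GFP+ peaks of Tjp1 and 5 of the 12 of F11r, and the GFP- bars of F11r and Emcn have no filled part.

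**Figure D4:**
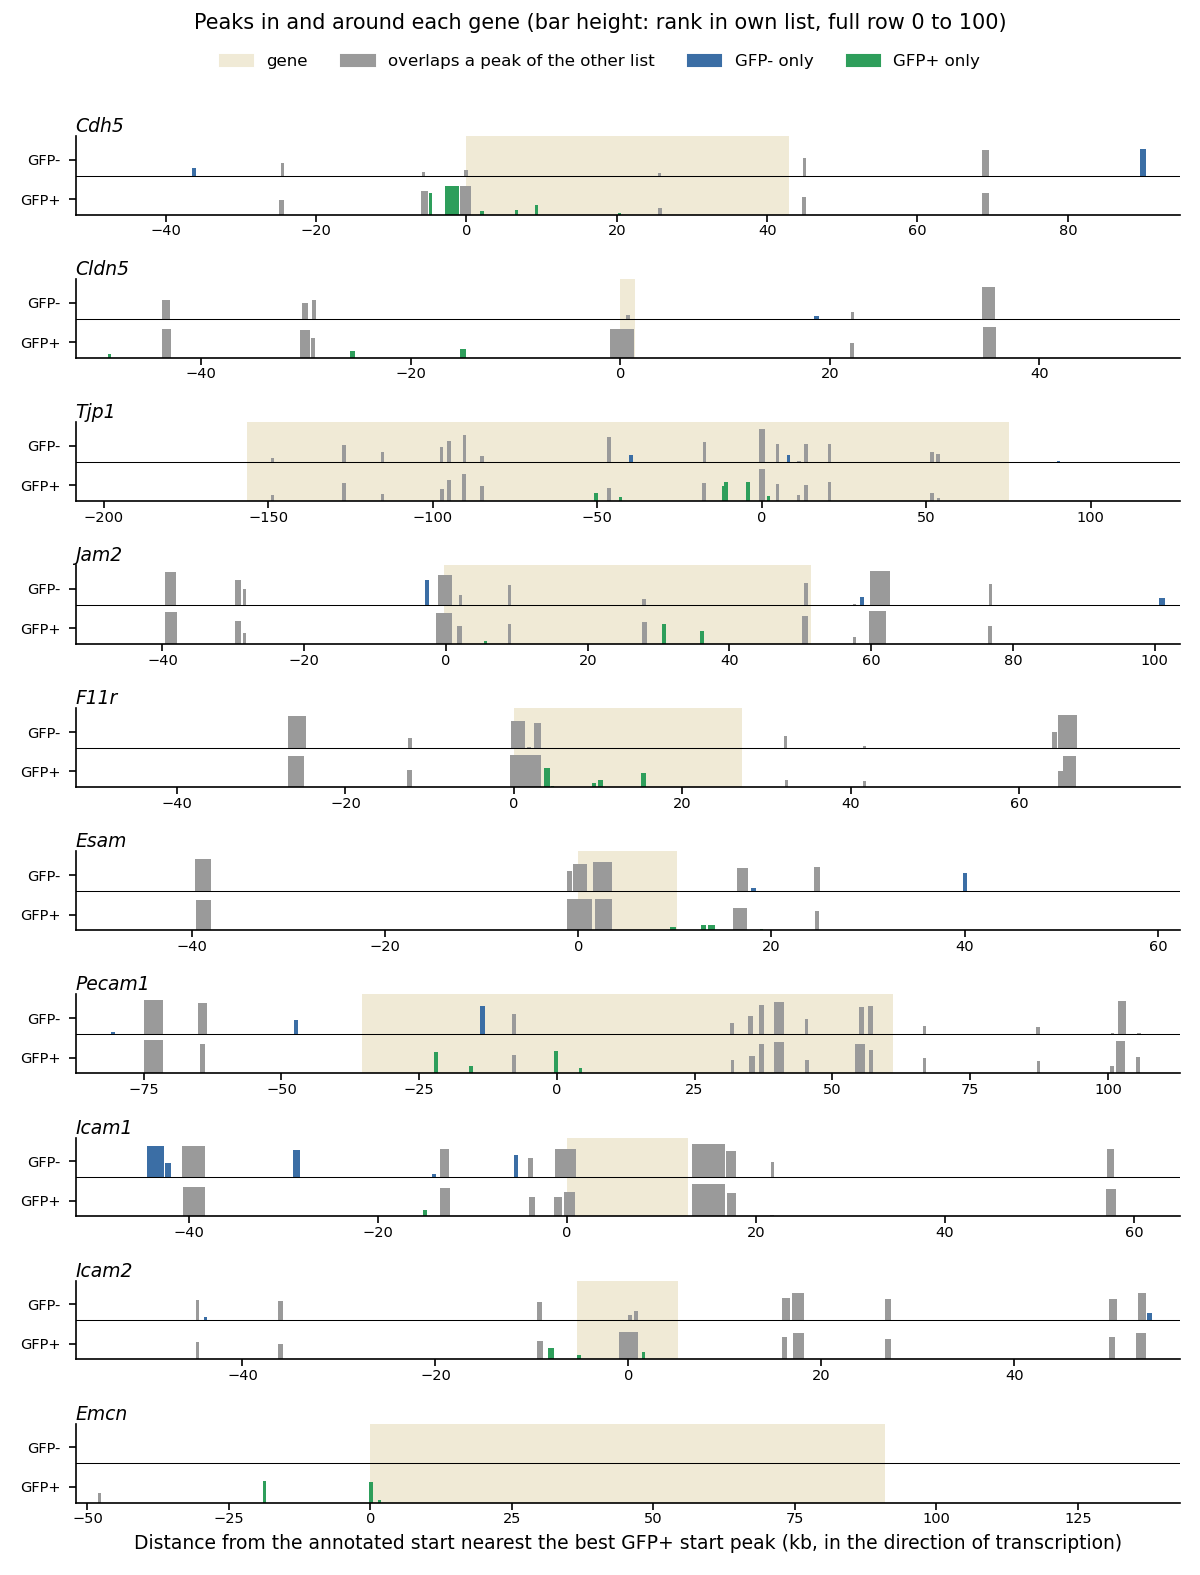
Peaks of both lists in each gene and its flanks, by distance from the annotated start nearest the summit of the best GFP+ start peak, in kb in the direction of transcription; bar height is the rank in the peak's own list, and short peaks are widened so that they can be seen. GFP+ only peaks (green) stand upstream of Cdh5 and Emcn and in introns of Tjp1 and F11r, and GFP- only peaks (blue) stand upstream of Icam1 and Jam2.

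The share of each gene body that peaks covered was also compared. Its median over the 10 genes was 6.61% in GFP- and 10.1% in GFP+, against 2.41% and 1.94% over all protein-coding genes. Coverage was higher in the GFP+ list for 9 of 10 genes, and Icam1 was the exception with 7.42% in GFP- and 6.77% in GFP+. Of all genes it was higher for 22.8%, but these include many genes without coverage in either list. Start peaks inside the gene count towards coverage, so it is not separate from the start ranks. For Icam2 it was 5.39% in GFP- and 23.7% in GFP+, for Cdh5 0.80% and 4.72%, and for Tjp1 3.80% and 4.35%. Emcn had none of its body covered in GFP- and 0.89% in GFP+.

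The base composition of the start peaks, which played no part in choosing the genes, was read next. In the 300 bp around the GFP+ summit, the ratio of observed to expected CpG dinucleotides was 0.22 in Cldn5, 0.23 in Cdh5, 0.25 in Pecam1, 0.28 in Icam2 and 0.36 in Emcn. In the 5 genes within 20 points it was 0.63 in Esam, 0.64 in Icam1, 0.67 in Jam2, 0.86 in F11r and 1.06 in Tjp1, with no overlap between the 5 genes and the other 5. Ranked by area per bp, Esam passed 20 points and Icam2 did not, and the ratios of the groups then overlapped. Over the 13001 genes with a GFP+ start peak the median was 0.82, and 12.6% were under 0.5. Of the 265 genes at least 20 points higher in GFP+, 52.8% were under 0.5, of the 547 with a GFP+ start peak that were at least 20 points lower 35.5%, and of those within 20 points 10.7%. Low ratios were thus more frequent among starts that differed in rank in either direction. The window of Cldn5 was centred 886 bp upstream of its start and that of Icam2 752 bp downstream, and the 250 bases before the Cldn5 start had a ratio of 0.55.

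**Figure D5:**
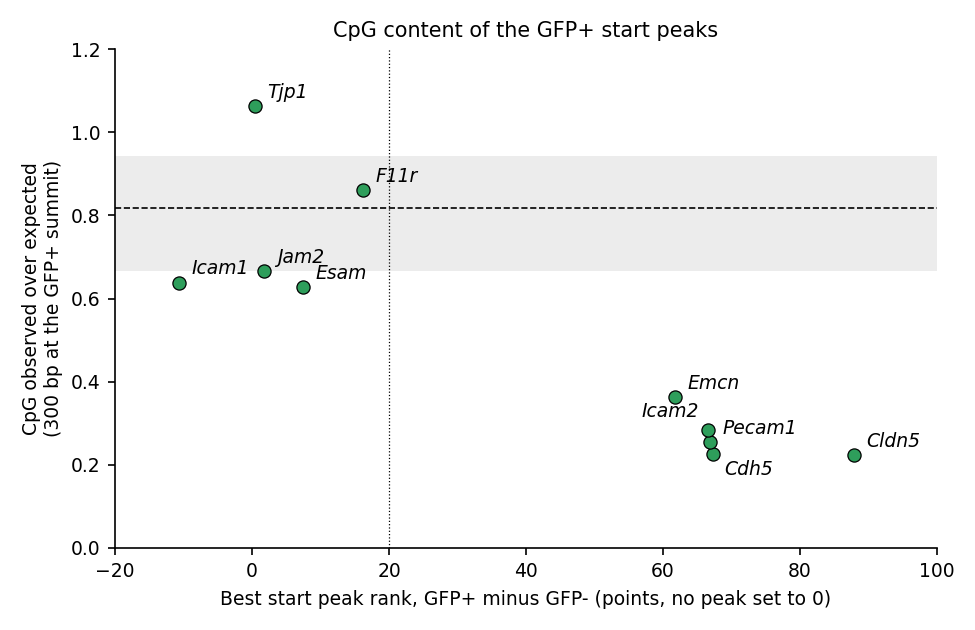
Ratio of observed to expected CpG in the 300 bp around the GFP+ start peak summit (vertical) against the best start peak rank difference, GFP+ minus GFP- (horizontal, points); the dashed line and grey band are the median and the middle 50% of 13001 genes, and the dotted line is 20 points. The 5 genes right of the dotted line lie at 0.22 to 0.36, and the 5 left of it at 0.63 to 1.06.

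Short words were counted in windows of 300 bp around summits, on both strands, as a description of sequence and not of binding. AGGAAG was in 24 of the 33 GFP+ only intronic and flank peaks (72.7%), against 52.5% of all 8720 GFP+ only peaks with a full window. It was in 34 of the 76 shared GFP+ peaks of these genes (44.7%), against 36.5% of all shared GFP+ peaks, and in 10 of their 22 GFP- only peaks (45.5%), against 38.0% of all GFP- only peaks. The longer CAGGAAGT was in 4 of 33 GFP+ only peaks and in 0 of 76 shared peaks, against 7.41% and 3.66% over the lists. The SOX word CCATTGT was in 6 of 33 GFP+ only peaks and 3 of 76 shared peaks, against 7.63% and 3.42%. At the best GFP+ start peaks AGGAAG was in 2 of 10 genes, Cldn5 and Emcn, against 30.5% of all genes with such a peak and 35.4% of the 32851 RefSeq promoters of 300 bp. These shares have no test, and the GFP+ only peaks also differ from shared ones in size.

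Other genes linked to junctions and adhesion, called partner genes here, differed less between the lists. They are a mixed list that also holds Cd34, Podxl, Mcam, Cdh13, Rap1b, Krit1 and Cdh2. All 22 partner genes had a start peak in both lists, as 12802 of the 21755 protein-coding genes did. Their median ranks were 91.9 in GFP- and 91.2 in GFP+. Of the 22, 2 ranked at least 20 points higher in GFP+, against 1.22% of all genes. These were Ptprb, the phosphatase VE-PTP that binds VE-cadherin (34.2 in GFP- and 75.8 in GFP+), and Ocln, the tight junction protein occludin (11.03 and 41.9). The catenins that link cadherins to actin were open in both: Ctnnb1 had ranks of 96.0 and 95.3, and Ctnna1 95.6 and 96.9. The 7 genes of the intercalated disc, the junction between cardiomyocytes, all had start peaks in both lists with medians of 94.1 and 95.02, and none differed by 20 points. Cdh2 and Jup were in this set and among the partner genes.

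Marker genes of the cell types were checked with the same measure. Of 8 endothelial markers, 4 ranked at least 20 points higher in GFP+ (Egfl7, Erg, Gpihbp1 and Tie1), 1 at least 20 points lower (Tek, 81.1 and 54.1) and 3 neither. Of all 21755 protein-coding genes, 265 ranked at least 20 points higher and 1000 at least 20 points lower. Of 7 fibroblast markers 5 had a start peak only in the GFP- list, and of 5 mural cell markers 2 did, against 642 of all 21755 genes. Of 7 cardiomyocyte markers 6 had a start peak in both lists, with median ranks of 92.5 and 92.5 over those 6. The median of their differences was -2.66 points, and only Ttn ranked higher in GFP+ (82.7 and 91.2). Of 7 leukocyte markers, only Cd68 had a start peak (31.8 and 16.8), and the defining markers Ptprc, Itgam and Csf1r had none in either list. Of the 3 platelet and megakaryocyte markers, Pf4 (61.4 and 63.0) and Itga2b (97.3 and 93.3) had one in both and Gp9 in neither. The assay read nuclei only. The part of nuclei of these other cells in the values of Pecam1, Esam and Icam1, which such cells can also express, was not tested.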

How the data were processed

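Sorted nuclei were assayed by ATAC-Seq in 2 GFP- and 2 GFP+ samples, grouped by their labels. The authors used fastp for trimming, bowtie2 for mapping to mm10, samtools for quality filtering and Picard for duplicate removal, brought libraries to a common depth, and ran Genrich in ATAC-Seq mode on both replicates together, so depth and replicate error cannot be read from the lists. The deposited signal is the peak's area. The deposited score is the authors' area per bp, limited by the caller, and the deposited −log10 p-value belongs to the peak summit. Ranking by area favours long peaks, so ranks by area per bp and by summit p-value were alternatives, along with other windows, starts, overlaps and list lengths.

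Transcript starts came from GENCODE M21 and sequences from GRCm38.p6 and its RefSeq promoters. Intronic peaks have their summit in the gene outside exons and start windows, and flanks reach 50 kb. The genes and lists were chosen with earlier results of these data known. Named in full are start peaks and, per gene, the largest GFP+ only, GFP- only or shared peak. Other peaks named were chosen after their values were seen. Calculations, tested on simulated lists, used Python 3.11.15, numpy 2.4.6, pandas 2.3.3, scipy 1.17.1, pysam 0.24.0 and matplotlib 3.10.9.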

Additional observations from a re-analysis of the deposited data

How the results depend on the processing

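Each result was recomputed with 1 choice changed. Of 54 such values for the counts, shares and coverage of the 10 genes, 47 stayed within their limits (within 1.5 times for counts and coverage, within the Wilson interval for shares) and 7 moved. Of the rank differences of single genes, 78 stayed within 20 points of the main value and 11 moved further. Those for the upper 50% of each list were on ranks taken anew among the kept peaks. Their points are therefore not on the scale of the main values. With only the 5′ boundary of the gene record as a start, 3 genes instead of 5 ranked at least 20 points higher in GFP+, as Pecam1 (0 points) and Icam2 (13.5 points) no longer did, and 2 genes (Pecam1 and Tjp1) had a start peak in neither list. With only the upper 50% of each list by area, 5 genes instead of 3 had a start peak only in GFP+, and the median gene body coverage by GFP- peaks was 3.43%. With flanks of 10 kb, the share of GFP+ only peaks was 41.2% and that of GFP- only peaks 14.0%, against 13.6% and 29.3% over all genes. With peaks whose nearest coding start was the gene's own, the GFP+ only share was 40.6%, against 15.7% over all genes. Ranked by area per bp, 5 genes again passed 20 points, with Esam in place of Icam2, and 2.01% of all genes passed. The differences were then smaller for Cldn5 (40.4 points, 87.9 by area), Cdh5 (42.2, 67.4 by area), Pecam1 (39.9, 66.9 by area) and Emcn (47.0, 61.7 by area). That of Esam was larger (28.8, 7.39 by area). An overlap of 50% of both peaks gave 33.9% GFP+ only in these genes and 26.2% over all, a closer pair than in the main comparison. The Wilson interval for these genes, 25.74 to 43.25, included the share over all. Values without Cdh5, and without peaks near other genes' starts, were added after the data were seen and stayed within the limits.

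No paired analysis was possible because each list pools both replicates, and for the same reason leaving out a replicate was not run. Depth per sample is not analysed here, and the absence of a peak is an absence from a list, not of open chromatin.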

Other observations

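Further words were counted in the 300 bp around the summits of the 33 GFP+ only intronic and flank peaks. The KLF word CCACACCC was in 4 of 33, against 4.58% of all GFP+ only peaks, the GATA word AGATAA in 3, against 15.9%, and the TATA word TATAAA in 4, against 13.6%. In the 22 GFP- only peaks of the same genes AGATAA was in 5, against 15.3% of all GFP- only peaks.

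Among 3 lymphatic endothelial markers, Flt4, a receptor of lymphangiogenic growth factors, ranked higher in GFP+ (58.8 and 83.3), while Lyve1 (36.8 and 25.8) and Prox1 (86.5 and 82.7) ranked lower by under 20 points. Of 5 epithelial or mesothelial markers, Epcam had a start peak, with rank 16.6 in the GFP- list only, and the other 4 had none in either list.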
